A study of Rattus norvegicus with 20 samples.

Results

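Potassium channel genes were taken as the protein-coding genes of the table whose symbol starts with Kcn. The rule gave 93 entries, which came to 92 genes after a repeated symbol, Kcnk6, was reduced to its entry with the higher mean, of 30443 genes in all and 22075 protein-coding ones. Of the 92 genes, 75 reached 1 FPKM in at least 1 of the 20 libraries and entered the tests, among 15210 genes of the whole table that did. FPKM counts fragments relative to transcript length and to the size of the library, so levels of different genes can be compared on it. The genes fall into 21 subfamilies by symbol prefix. By the family and role of their products they were grouped as 28 voltage-gated subunits, 10 silent subunits, 15 inward rectifiers and 14 leak channels. A further 8 were grouped by family as calcium- or sodium-activated channels (Kcnma, Kcnn, Kcnt and Kcnu), whatever the gating of each member. The remaining 17 were auxiliary subunits or regulators.

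Total RNA depleted of ribosomal RNA was sequenced from 5 regions of 4 rats, which gave 20 libraries. All animals were wild-type female Long-Evans rats, an outbred stock, of 6 to 8 months and 275 to 350 g. All received a contusion of the cord on 1 side at cervical level 4 with a displacement of 0.7 mm, and 2 weeks later stimulating electrodes were implanted in motor cortex on the side opposite to the injury. In both groups the movement threshold was tested 1 week after the implant, by passing pulses through each wire. The 2 stimulated animals then received current at 10 Hz and 80% of that threshold for 5 h a day over 1 week. It came in cycles of 5 min on and 2 min off. The 2 control animals had the same injury, implant and handling without this week of stimulation. Region 1 was a block of white matter below the implant and region 2 the matching block of the other hemisphere. Regions 3, 4 and 5 were cord rostral to the lesion, at the lesion and caudal to it. No animal lacked the injury or the implant, so an uninjured level was not measured. The 5 libraries of an animal are not independent animals, and the p-values measure the spread between these libraries. The number of reads behind an FPKM is not in the table, so depth is unknown at the level of a value.

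Potassium channels let potassium ions leave or enter a cell and so set its resting potential, the shape of its action potentials and its firing pattern. Voltage-gated subunits open on depolarization, silent subunits form no channel alone and modify Kv2 channels, inward rectifiers and leak channels hold the resting potential, and calcium- or sodium-activated channels open when these ions build up inside the cell. In white matter, Kv1 channels lie beside the nodes of Ranvier under the myelin, Kv7 channels lie at the node itself, and Kir4.1 of astrocytes and oligodendrocytes clears potassium that axons release.

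The tissue labels were first set against marker genes. The blocks labelled white matter (regions 1 and 2) held cortical excitatory neuron markers: all 5 listed passed the test as higher there, with a summed level of 364 to 594 FPKM against 5.60 to 24.9 in the cord. All 6 oligodendrocyte markers were lower in these blocks, with a sum of 708 to 2943 against 7403 to 10779 FPKM, and all 5 spinal and brainstem neuron markers were lower, with 3.22 to 6.86 against 98.4 to 157 FPKM. The 6 general neuron markers summed to 878 to 1592 FPKM in the blocks and to 848 to 1512 in the cord. Singly they divided, with 3 called higher in the blocks, 2 lower and 1 not called. Syt1 was at 199 to 308 FPKM in the blocks against 16.6 to 49.8 in the cord, and Nefl at 88.1 to 152 against 287 to 582. Tbr1, a transcription factor of deep-layer cortical neurons, was at 10.7 to 18.7 FPKM in the blocks and at 0.1, the floor of the table, to 0.105 in the cord. These blocks are called white matter blocks below, after their label. A few libraries stood apart. Stimulated animal 1 region 1 had a summed level of striatal markers of 119 FPKM, against 29.0 to 41.2 in the other white matter libraries. Stimulated animal 2 region 1 had a phagocyte marker sum of 1260 FPKM and a neuron marker sum of 878, the highest and the lowest of the white matter libraries. Spp1 at 593 and Lyz2 at 405 FPKM made up most of that phagocyte sum. Gpnmb, Lgals3, Cd68 and Cd44 were at 137, 67.8, 29.6 and 26.7 FPKM. In the lesion library of control animal 1 these genes were at 434, 271, 45.2 and 44.2. In bulk tissue, fewer cells of a type and less RNA per cell cannot be told apart.

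Promoter sequences of 4 genes are shown, chosen after the values were seen from the members with large differences and an entry in the promoter set. Kcnj4 and Kcnf1 were higher in the blocks, Kcnj16 and Kcng4 in the cord. Each line holds the 200 bases before the annotated start, 5′ to 3′ on the strand of the gene, from RefSeq on build GRCr8, and capitals mark CG dinucleotides. The windows are chr7:112954548-112954747 on the minus strand for Kcnj4 (an inward rectifier), chr6:45693707-45693906 on the minus strand for Kcnf1 (a silent subunit), chr10:96517124-96517323 on the plus strand for Kcnj16 (a glial inward rectifier subunit) and chr19:64597889-64598088 on the minus strand for Kcng4 (a silent subunit).
Kcnj4: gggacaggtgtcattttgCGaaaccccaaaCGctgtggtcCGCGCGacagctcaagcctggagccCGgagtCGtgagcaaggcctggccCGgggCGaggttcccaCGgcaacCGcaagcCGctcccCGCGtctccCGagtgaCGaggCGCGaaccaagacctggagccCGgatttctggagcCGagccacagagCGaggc
Kcnf1: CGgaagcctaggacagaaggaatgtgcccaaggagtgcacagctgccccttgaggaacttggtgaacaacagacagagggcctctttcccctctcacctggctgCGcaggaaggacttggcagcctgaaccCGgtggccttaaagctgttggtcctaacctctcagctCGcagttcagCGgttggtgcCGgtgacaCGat
Kcnj16: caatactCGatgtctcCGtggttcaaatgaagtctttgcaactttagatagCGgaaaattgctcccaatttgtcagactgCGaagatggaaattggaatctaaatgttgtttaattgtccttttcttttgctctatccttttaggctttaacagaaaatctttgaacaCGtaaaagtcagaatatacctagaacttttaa
Kcng4: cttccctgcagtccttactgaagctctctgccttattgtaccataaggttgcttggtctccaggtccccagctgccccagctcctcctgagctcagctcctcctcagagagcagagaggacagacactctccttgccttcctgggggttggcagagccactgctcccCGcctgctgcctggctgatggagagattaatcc
The windows held 21 CG dinucleotides for Kcnj4, 7 for Kcnf1, 5 for Kcnj16 and 1 for Kcng4. None of the 4 held TATAAA or GGGCGG on either strand. Of the 92 genes, 61 had an entry in the promoter set. Their windows had a median of 9 CG dinucleotides, against 5 over all 27455 promoters. The median was 17 in the 24 matched genes that were higher in the white matter blocks, 7.5 in the 18 that were higher in the cord and 4.5 in the 14 that stayed under 1 FPKM. The same medians were not taken over all genes called in either direction, so this contrast is not read as particular to potassium channel genes. The letters GGGCGG, searched on both strands, occurred in 45.9% of the 61 windows and in 30.4% of all promoters. TATAAA occurred in 3.28% of the 61 windows and in 10.5% of all promoters, and CANNTG, which reads the same on both strands, in 52.5% and 56.6%. These letters describe the windows, and no binding was measured.

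Across the 20 libraries, Kcnab2, the Kv beta subunit that sits with Kv1 channels on axons, had the highest mean level of all members, 56.9 FPKM. In the cord the order differed, with Kcna1 at 58.0 ± 7.5 (SD, n = 12) and Kcnab2 at 51.1 ± 8.5 FPKM. Over all libraries Kcna1 followed with 46.4, Kcnj10 (Kir4.1) with 33.8 and Kcna2 with 32.9 FPKM. Kcnab1 was at 22.0, Kcnk1 at 19.3 and Kcnc2 at 18.9 FPKM. A mean of at least 10 FPKM was reached by 23 members, and 50 were at or above 1 FPKM in all 20 libraries. The 17 members that were not tested stayed under 1 FPKM everywhere, and 6 of them (Kcna7, Kcna10, Kcne1, Kcnj1, Kcnu1 and Kcnv2) were listed at 0.1 in all 20 libraries. Just under the limit were Kcnh8 with a highest value of 0.958 and Kcne3 with 0.933 FPKM, and just over it Kcna5 with 1.04 and Kcnh6 with 1.06 FPKM. Kcna3 and Kcnd2 were not analysed here.

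**Figure D1:**
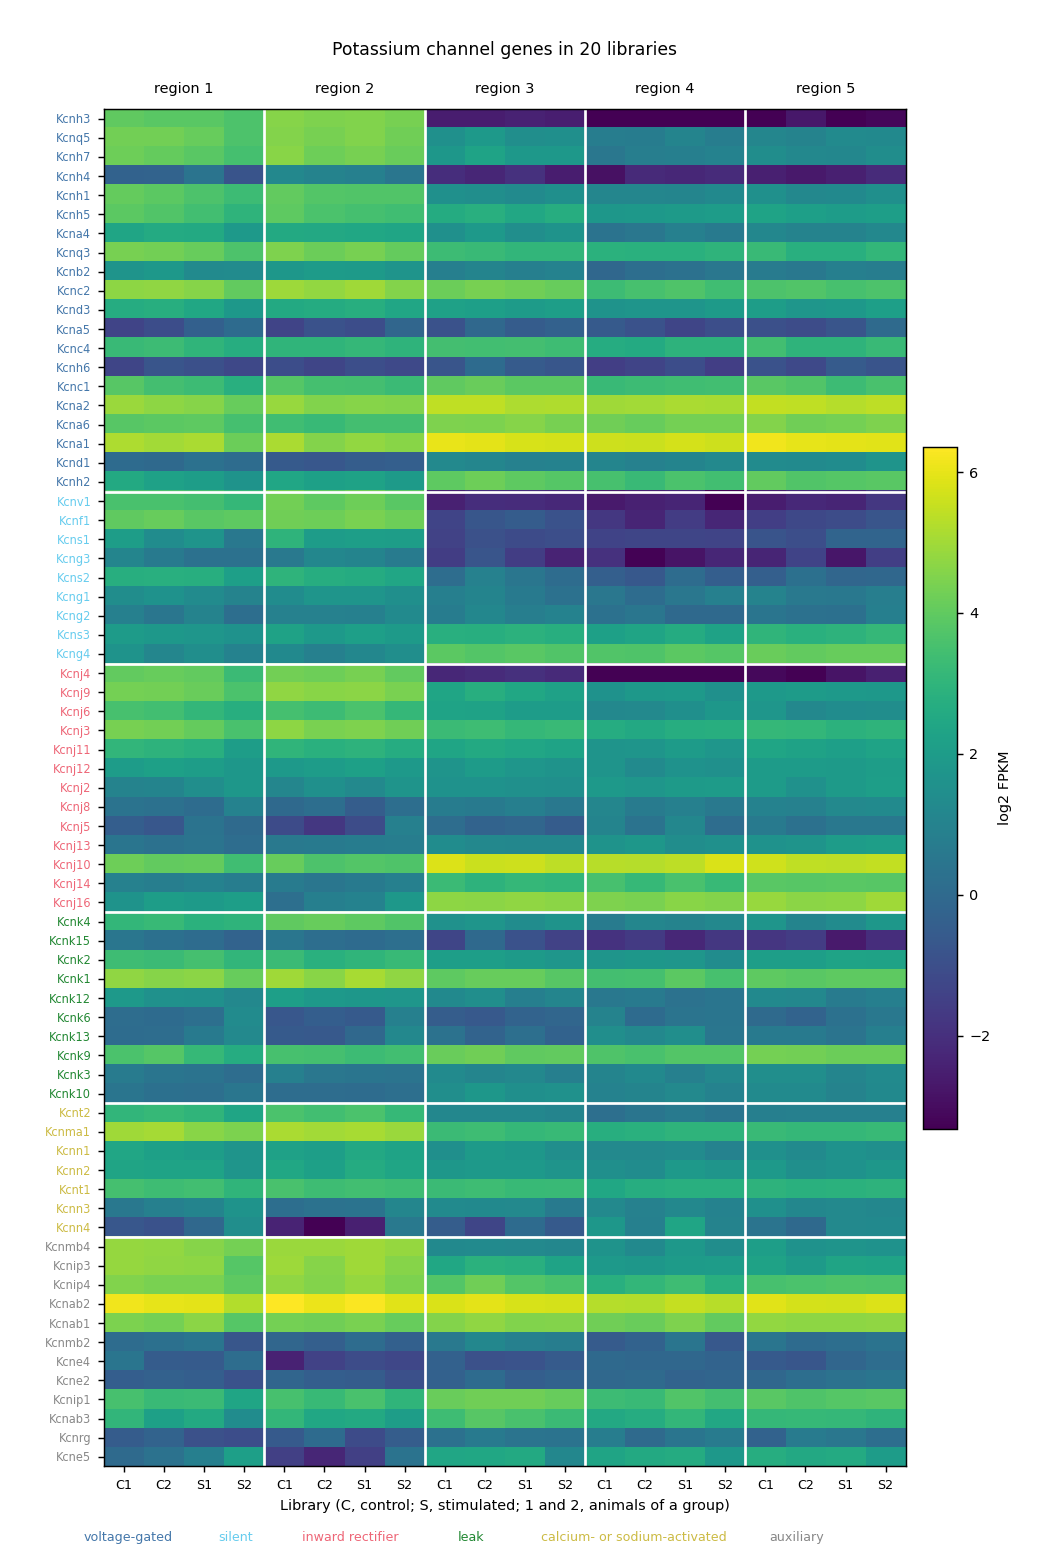
Heat map of log2 FPKM of 71 of the 75 tested potassium channel genes (lines, grouped and coloured by role) in the 20 libraries (columns, by region, control then stimulated). The 8 white matter libraries separate from the 12 cord libraries for Kcnh3, Kcnj4, Kcnv1 and Kcnf1, which are near the floor of 0.1 FPKM in the cord, and for Kcnj16 and Kcng4, which are higher in the cord.

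The summed level of the 92 members was 724 ± 132 FPKM (SD, n = 4) in region 1 and 828 ± 74.6 in region 2. In the cord it was 653 ± 42.6 in region 3, 509 ± 32.1 in region 4 and 633 ± 34.3 FPKM in region 5. The lesion thus had the lowest sum, with its 4 libraries at 478 to 551 FPKM and those of regions 3 and 5 at 601 to 701. Regions 1 to 5 held the highest mean of 4, 38, 13, 4 and 16 of the 75 tested members, and the lowest mean of 13, 14, 3, 43 and 2. By role, voltage-gated subunits summed to 288, 318, 279, 210 and 262 FPKM in regions 1 to 5, auxiliary subunits to 169, 195, 144, 102 and 137, and inward rectifiers to 97.8, 112, 121, 107 and 123. Leak channels summed to 62.3, 74.3, 50.9, 41.0 and 52.5 FPKM, calcium- or sodium-activated channels to 58.0, 66.9, 31.2, 26.0 and 28.7, and silent subunits to 47.8, 61.6, 27.8, 23.4 and 30.9. Inward rectifiers were the role whose sum was not higher in both white matter blocks than in every cord region.

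White matter blocks and cord were compared over all regions, 8 against 12 libraries, by limma with Benjamini-Hochberg adjustment over the 15210 genes. Of the 75 members, 40 were higher in the white matter blocks and 29 lower at an adjusted p under 0.05, and 6 did not pass. Among all genes, 25.0% were called higher and 47.1% lower, so the members' share of higher calls (53.3%) was above the background and their share of lower calls (38.7%) below it. Groups did not overlap for 26 members that were higher in the blocks, against a background of 10.3%, and for 13 that were lower, against 16.8%. The members' median difference was 0.35 on the log2 scale, against -0.18 over all genes tested. Scaling moved that median of all genes, to -0.04 under quantile normalization and to -0.10 under upper-quartile scaling, so small differences are read against it. The regions compared come from the same 4 animals.

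All 9 tested silent subunits passed the test, 7 as higher in the blocks and 2 as lower. Kcnf1 (Kv5.1) was at 14.9, 17.9 and 21.3 FPKM (lowest, median and highest) in the white matter libraries and at 0.201, 0.410 and 0.698 in the cord libraries. The groups lay far apart, with a log2 difference of 5.47 ± 0.12 (SE; limma, adjusted p = 8.92e-18). Kcnv1 (Kv8.1) was at 14.0 ± 3.78 FPKM (SD, n = 8) in the blocks against 0.200 ± 0.0477 (n = 12) in the cord, a log2 difference of 6.13 ± 0.13 (adjusted p = 7.27e-18). It was at the floor in 1 cord library, and with 1 FPKM added to every value the difference was 3.61, against 3.71 for Kcnf1. Kcns1, Kcns2 and Kcng3 were higher in the blocks too, by 2.85, 2.65 and 2.76 on the log2 scale, or by 1.63, 1.84 and 1.07 with 1 FPKM added. Kcng4 (Kv6.4) went the other way, with 1.88, 2.30 and 3.12 FPKM in the blocks and 12.8, 14.8 and 17.9 in the cord. Its groups did not overlap either (log2 difference -2.66 ± 0.08, adjusted p = 1.13e-15). Kcns3 was the other silent subunit that was lower in the blocks, at 3.89 ± 0.55 against 6.66 ± 1.3 FPKM. Kcnb2, of the Kv2 channels that silent subunits modify, was higher in the blocks, at 3.29 ± 0.55 against 1.58 ± 0.35 FPKM.

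Among voltage-gated subunits, 13 of 24 tested members were higher in the blocks, 7 lower and 4 not called. The Eag, Erg and Elk group (Kcnh) held 5 of the higher ones. Kcnh3 (Elk2) was at 12.5, 18.3 and 24.1 FPKM in the blocks, and in the cord between the floor of 0.1 and 0.188. It was at the floor in 6 of 12 cord libraries, so its log2 difference of 7.15 ± 0.09 (adjusted p = 3.26e-21) depends on where that floor was set, and it was 4.07 with 1 FPKM added to every value. Kcnh7 (Erg3) was at 18.0 ± 4.07 FPKM against 2.71 ± 1.01, and Kcnh1 and Kcnh5, the Eag channels, were higher by 2.46 and 1.33 on the log2 scale. Kcnh2 (Erg1) was the Kcnh gene that was lower in the blocks, at 4.54 ± 0.815 against 13.9 ± 2.54 FPKM (log2 difference -1.61 ± 0.09, adjusted p = 1.23e-11). Kcnq5, of the Kv7 channels that carry the M-current and limit repetitive firing, was at 12.6, 19.7 and 23.9 FPKM in the blocks and at 1.67, 2.30 and 3.68 in the cord, and Kcnq3 was higher in the blocks by 1.18 on the log2 scale.

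The axonal Kv1 genes were higher in the cord. Kcna1 was at 18.0, 29.9 and 36.1 FPKM in the blocks and at 48.4, 57.7 and 71.6 in the cord, so that every cord library was above every white matter library (log2 difference -1.02 ± 0.11, adjusted p = 9.52e-08). Kcna2 was at 24.8 ± 3.95 against 38.4 ± 4.74 FPKM (log2 difference -0.64 ± 0.08, adjusted p = 9.94e-07), and Kcna6 was lower in the blocks by 0.78 on the log2 scale. Kcna4, which makes A-type currents, was higher in the blocks, at 5.38 ± 0.745 against 2.28 ± 0.75 FPKM. Kcnc2, a Kv3 gene known for fast spiking, was higher in the blocks, at 25.9 ± 4.62 against 14.2 ± 3.64 FPKM. Kcnc1 and Kcnc4, of the same subfamily, did not pass (adjusted p = 0.0728 and 0.420). Of the Kv4 genes, Kcnd1 was lower in the blocks (log2 difference -1.40 ± 0.08) and Kcnd3 higher (0.56 ± 0.10). Of the 7 listed genes of nodes, axons and their flanks, Kcna1, Kcna2, Kcnab2, Kcnk2, Kcnk4 and Kcnq3 among them, 5 were higher in the blocks and 2 lower, so these genes divided between the tissues.

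**Figure D2:**
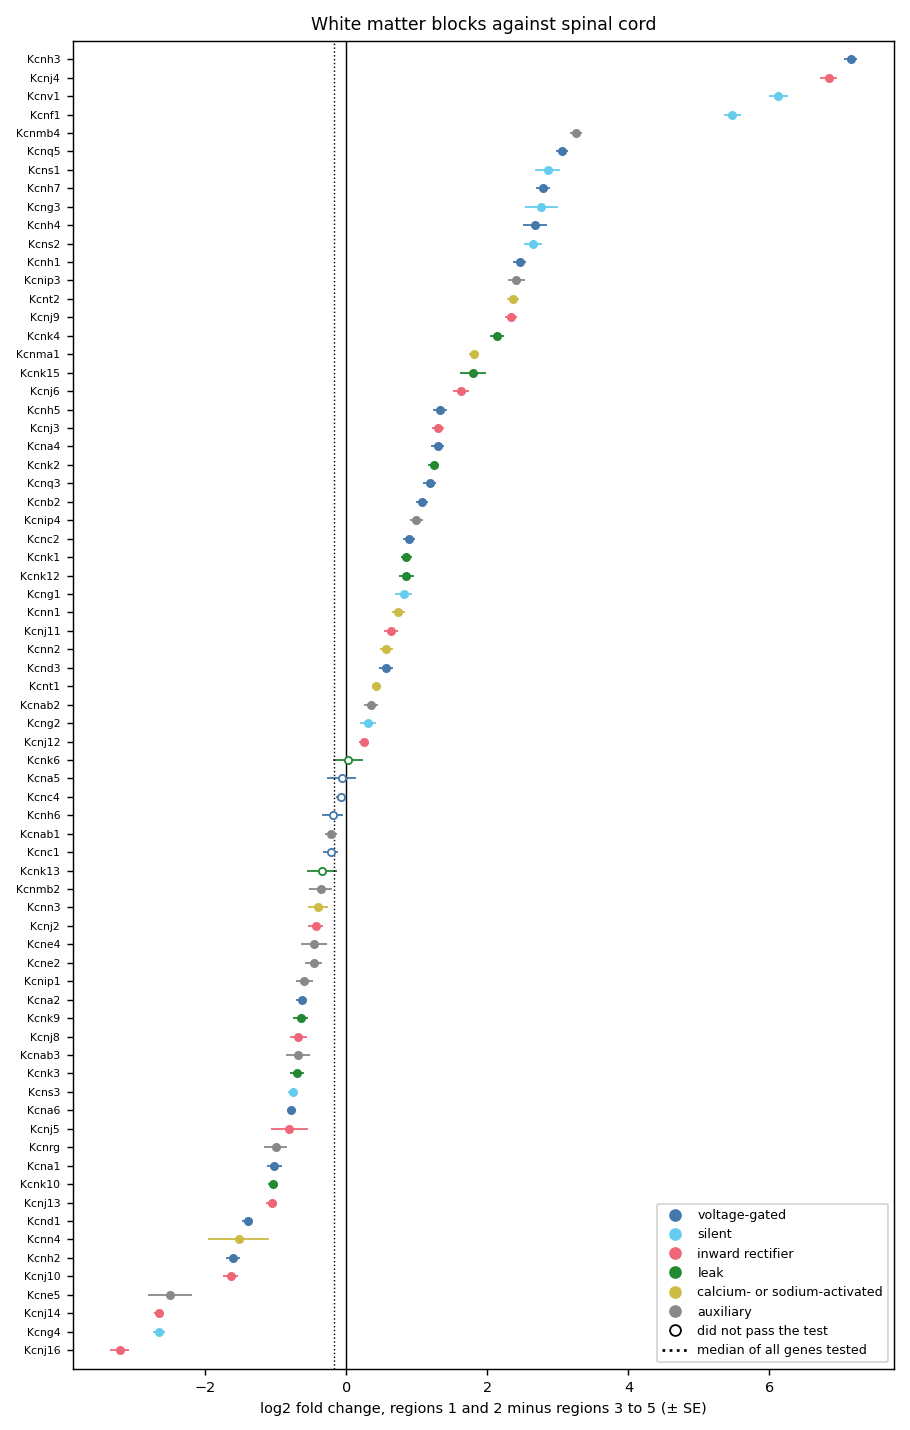
Log2 difference of white matter blocks minus cord (x axis, ± SE from limma) for 71 of the 75 tested members, ordered by size and coloured by role. Filled points passed an adjusted p under 0.05, and the dotted line is the median of all genes at -0.18. Kcnh3 and Kcnj4 lie farthest to the right at 7.15 and 6.84, and Kcnj16 farthest to the left at -3.22.

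Inward rectifiers divided almost evenly, with 6 of 13 tested members higher in the blocks and 7 lower. Kcnj4 (Kir2.3) was at 9.71, 16.9 and 20.8 FPKM in the blocks and between 0.1 and 0.256 in the cord, where 4 of 12 libraries were at the floor, and its log2 difference of 6.84 was 3.93 with 1 FPKM added. The listed G protein-gated subunits Kcnj3, Kcnj6 and Kcnj9, which open downstream of inhibitory neurotransmitter receptors, were higher in the blocks by 1.30, 1.62 and 2.34 on the log2 scale, and Kcnj5 was lower by 0.81 on that scale. Glial inward rectifiers were higher in the cord. Kcnj10 (Kir4.1) was at 10.6, 15.1 and 18.8 FPKM in the blocks and at 38.7, 43.9 and 58.3 in the cord (log2 difference -1.64 ± 0.10, adjusted p = 3.55e-11). Its partner Kcnj16 (Kir5.1) was at 1.17, 3.33 and 4.36 FPKM in the blocks and at 21.5, 25.6 and 31.2 in the cord (log2 difference -3.22 ± 0.13, adjusted p = 9.56e-14). Neither gene overlapped between the tissues. Kcnj2, the other gene of the glial list, was lower in the blocks by a log2 difference of -0.44 ± 0.10 (adjusted p = 0.000942), so 3 of 3 were lower. Beside them, 4 of 6 astrocyte markers were lower in the blocks and 2 higher, and 6 of 6 oligodendrocyte markers lower, with astrocyte sums of 589 to 1521 FPKM against 1479 to 2945. Their part in the difference was not tested. Kcnj14 (Kir2.4), known from motor nuclei, was at 1.74 ± 0.197 FPKM in the blocks against 11.2 ± 2.77 in the cord.

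Calcium- and sodium-activated channels were mostly higher in the blocks, 5 of 7 against 2 lower. Kcnma1, the pore of the BK channel that opens with calcium and voltage together, was at 22.1, 31.9 and 35.1 FPKM in the blocks and at 6.76, 8.80 and 10.3 in the cord (log2 difference 1.81 ± 0.07, adjusted p = 2.05e-14). Its neuronal beta subunit Kcnmb4 was at 20.2, 28.2 and 31.8 FPKM against 2.23, 2.86 and 4.27 (log2 difference 3.25 ± 0.08, adjusted p = 8.59e-17). No library of either tissue reached the range of the other for these genes. Kcnt2, a sodium-activated channel, was higher in the blocks by 2.36 on the log2 scale and its relative Kcnt1 by 0.43. The small-conductance channels Kcnn1 and Kcnn2, which make the pause after a spike, were higher by 0.73 and 0.57 and Kcnn3 lower (-0.40). Kcnn4, the intermediate-conductance channel of immune and epithelial cells, was lower in the blocks with overlapping groups (0.854 ± 0.892 against 1.87 ± 1.36 FPKM, adjusted p = 0.00356). The cord regions differed for this gene: it was highest at the lesion, and its mean in the rostral segment was under that of the blocks.

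Leak channels of the K2P family had 5 of 10 tested members higher in the blocks, 3 lower and 2 not called. Kcnk4 (TRAAK) and Kcnk2 (TREK-1), mechanosensitive channels found at nodes of Ranvier, were at 11.9 ± 4.09 against 2.63 ± 0.601 and at 9.20 ± 1.4 against 3.92 ± 0.69 FPKM. Kcnk1 (TWIK-1) was at 26.5 ± 4.9 against 14.6 ± 2.1 FPKM. Kcnk9 (TASK-3) was lower in the blocks, at 10.6 ± 2.3 against 16.5 ± 2.7 FPKM. Of the auxiliary subunits, 4 of 12 were higher and 8 lower. Kcnip3 and Kcnip4, calcium-binding partners of Kv4, were higher by 2.41 and 0.99 on the log2 scale, and Kcnip1 lower (-0.60 ± 0.12). Kcnab2 was higher by 0.35 ± 0.09 (adjusted p = 0.0029). Kcne5, a modulator of Kv7 and other channels, was lower in the blocks (1.33 ± 1.36 against 5.15 ± 1.26 FPKM), with groups that overlapped through stimulated animal 2.

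**Figure D3:**
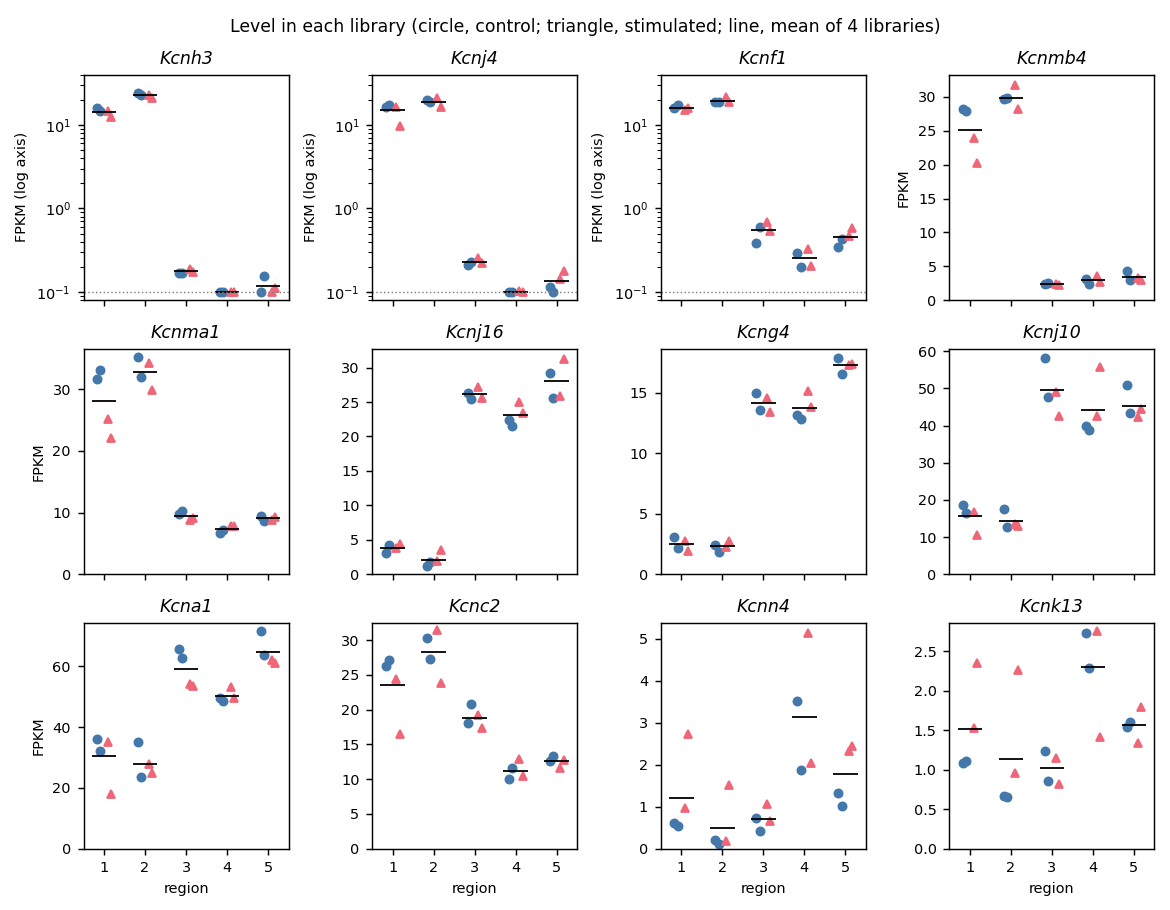
FPKM of 12 potassium channel genes in each library by region (circles control, triangles stimulated, lines the mean of the 4 libraries), with a log axis for Kcnh3, Kcnj4 and Kcnf1. Kcnmb4 and Kcnma1 are higher in regions 1 and 2, Kcnj16, Kcng4, Kcnj10 and Kcna1 are higher in regions 3 to 5, and Kcnn4 is highest in region 4.

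Of the 40 calls of higher members, 36 were kept under each of the alternatives, and of the 29 lower ones 20, while all 69 kept their sign. Kcnab1 (9 of 17 alternatives), Kcnmb2 (11 of 17), Kcne4 (11 of 16) and Kcng2 (7 of 17) lost their calls most often. Kcnn3 lost its call under 5 of 17, among them leaving out control animal 1 or control animal 2, with log2 differences of -0.76 to -0.041. Kcnj5 lost it under 3 of 17, leaving out control animal 1 or control animal 2 and in stimulated animals only, with -1.37 to -0.25, and Kcnn4 under 3 of 17, with -2.19 to -0.62. Of the other role lists, Kv4 channels with their partners had 3 higher and 2 lower of 5 tested. Small-conductance channels had 2 higher and 1 lower. Of the channels of immune cells, Kcnn4 was lower and Kcnk13 and Kcnk6 were not called, and of the vascular channels Kcnj8 was lower and Kcna5 not called.

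Other proteins bind these channels or move the same ion. Of 23 listed channel partners, 22 were in the table and 19 tested, and 10 were higher in the blocks and 8 lower, with a median log2 difference of 0.19. Dpp10, which speeds Kv4 channels, was at 31.8 ± 4.64 FPKM in the blocks against 12.4 ± 2.78 in the cord, whereas its relative Dpp6 was at 29.3 ± 4.7 against 36.9 ± 7.11. Dlg4 (PSD-95), a scaffold of Kv1 channels, was at 80.3 ± 12.4 against 34.5 ± 5.45 FPKM. Cntn2, the adhesion protein that holds Kv1 beside the node, was lower in the blocks, at 11.7 ± 2.56 against 24.9 ± 2.16, while Cntnap1, of the adjoining paranode, was higher, at 42.0 ± 5.72 against 23.9 ± 4.88. Of 12 listed potassium pumps and cotransporters 11 were tested, with 2 higher in the blocks and 6 lower (median -0.85). Slc12a2 (NKCC1), which brings chloride into cells, was at 20.4 ± 5.3 against 75.2 ± 6.74 FPKM. Slc12a5 (KCC2), the neuronal chloride extruder, was higher in the blocks by 0.32 ± 0.09 on the log2 scale (limma, adjusted p = 0.00535).

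The hemisphere below the implant (region 1) was compared with the other (region 2), 4 against 4 libraries. Of the 75 members, 5 were higher in region 1 (background 6.86%) and 5 lower (background 1.76%). The median difference was -0.16 on the log2 scale, against 0.06 over all genes. In control animals only it was -0.00034, against 0.12 over all genes. There 6 of the 75 members were called higher and 1 lower, beside 1121 and 94 of all 15210 genes. In stimulated animals only the median was -0.32, against -0.0038, with 0 members and 0 of all genes called. Over all libraries, Kcnk4 had the smallest adjusted p. It was at 8.60, 9.28, 7.28 and 7.85 FPKM in region 1 (control 1, control 2, stimulated 1, stimulated 2, the order used throughout) and at 16.0, 17.4, 15.5 and 13.2 in region 2, so the groups did not overlap (log2 difference -0.91 ± 0.15, adjusted p = 0.00248). Kcnh3 was at 14.4 ± 1.41 against 22.6 ± 1.4 FPKM (SD, n = 4), and Kcnh4 at 0.895 ± 0.309 against 1.89 ± 0.372. Kcnt2 and Kcnj9 were lower as well, with log2 differences of -0.56 and -0.52.

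The members that were higher in region 1 were expressed at low or moderate levels. Kcnj16 was at 3.11, 4.24, 3.86 and 4.36 FPKM in region 1 and at 1.17, 1.81, 1.97 and 3.55 in region 2, with stimulated animal 2 of region 2 inside the range of region 1 (log2 difference 0.97 ± 0.21, adjusted p = 0.00958). Kcne5 was at 1.02, 1.25, 1.79 and 4.42 against 0.360, 0.204, 0.359 and 1.28 FPKM (2.05 ± 0.48, adjusted p = 0.0151), and Kcne4 was higher by 1.40 ± 0.28. Stimulated animal 2 had the highest Kcne5 level in each block. Kcnd1 was at 1.09 ± 0.0975 against 0.696 ± 0.0669 FPKM, and Kcna6 at 14.1 ± 1.9 against 10.5 ± 0.893. Beside these differences, all 6 phagocyte markers were higher in region 1, with sums of 125 to 1260 FPKM against 23.4 to 229, and 1 of 6 neuron markers was lower. Of the oligodendrocyte markers 5 of 6 were higher in region 1, with sums of 1513 to 2943 FPKM against 708 to 1391, and of the astrocyte markers 2 of 6, with 1110 to 1521 against 589 to 1399. Their part was not tested. The split between higher and lower members also depended on scaling: it was 4 higher and 12 lower under quantile normalization and 5 and 15 under upper-quartile scaling. Over all genes it was 1043 and 267 in the main fit, 943 and 841 under quantile normalization and 1316 and 931 under upper-quartile scaling. Without all libraries of control animal 1, control animal 2 or stimulated animal 1, the members' count fell from 10 to 1, 1 and 0. Without the libraries of stimulated animal 2 it was 17, and without the region 2 library of stimulated animal 2 it was 19. Over all genes the calls went from 1310 to 95, 97 and 26, and to 3674 and 3580, in the same order. The swing is thus not particular to the members.

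Within the cord, the lesion (region 4) was set against the rostral segment (region 3). Of the 75 members, 37 were higher in region 3 (background 12.8%) and 3 lower (background 6.78%), with a median log2 difference of 0.44 against 0.02 over all genes. By role, 13 of 24 voltage-gated subunits were higher rostrally, 4 of 9 silent subunits, 5 of 13 inward rectifiers, 5 of 10 leak channels, 4 of 7 calcium- or sodium-activated channels and 6 of 12 auxiliary subunits. The lower level at the lesion thus ran through every role.

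The Kv3 genes Kcnc1, Kcnc2 and Kcnc4 were called. Kcnc2 was at 18.0, 20.8, 19.2 and 17.4 FPKM in region 3 and at 9.94, 11.7, 12.9 and 10.4 in region 4, without overlap (log2 difference 0.75 ± 0.13, adjusted p = 0.000951). Kcnc1 and Kcnc4 were higher rostrally by 0.66 and 0.65 on the log2 scale. Kcnh7 was at 3.50, 4.94, 3.56 and 3.61 FPKM against 1.45, 1.78, 1.83 and 1.98 (1.14 ± 0.16, adjusted p = 0.000176), with control animal 2 as the highest rostral value. Kcna4 was at 3.15 ± 0.456 against 1.54 ± 0.252 FPKM (1.03 ± 0.14, adjusted p = 0.000216), and Kcnf1 at 0.559 ± 0.129 against 0.257 ± 0.0635. Kcnj4 was between 0.213 and 0.256 FPKM in region 3 and between the floor of 0.1 and 0.102 in region 4, and Kcnh3 was at the floor in all 4, so no fold is given for either. Of the G protein-gated subunits, Kcnj3, Kcnj6 and Kcnj9 were higher rostrally, and of the nodal and axonal genes Kcnab2 and Kcnk4 were. The axonal Kv1 genes, Kcna1 (59.1 ± 6.07 against 50.2 ± 2.06 FPKM) and Kcna2 (39.9 ± 3.95 against 33.2 ± 1.9), did not pass the test.

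The 3 members that were higher at the lesion were Kcnn4, Kcnk13 and Kcnj13. Kcnn4 was at 0.725, 0.408, 1.05 and 0.663 FPKM in region 3 and at 3.52, 1.87, 5.12 and 2.03 in region 4, without overlap (log2 difference -2.09 ± 0.66, adjusted p = 0.0333). Kcnk13 (THIK-1), a leak channel of microglia, was at 1.24, 0.853, 1.15 and 0.818 FPKM against 2.73, 2.28, 2.75 and 1.41 (-1.15 ± 0.34, adjusted p = 0.0232). Kcnj13 (Kir7.1) was at 2.35 ± 0.192 against 3.06 ± 0.355 FPKM (-0.37 ± 0.12, adjusted p = 0.0341). The calls of Kcnn4 and Kcnk13 were lost under 6 of 17 alternatives each and that of Kcnj13 under 8. Beside them, 4 of 6 phagocyte markers were higher at the lesion, with sums of 447 to 1258 FPKM in region 4 against 166 to 227 in region 3, all 4 Schwann cell markers were higher there, with sums of 78.8 to 118 against 13.8 to 64.5, and 4 of 6 neuron markers were lower, with 848 to 1081 against 1176 to 1462. Of the channel partners, 11 of 19 were higher in region 3 and none lower. The part of these cells in the difference was not tested. Control animal 2 region 3 carried a cortical excitatory marker sum of 24.9 FPKM, against a median of 13.7 over region 3. Without it 25 members were higher and 0 lower, beside 1016 and 440 of all genes. Leaving out a whole animal gave 21, 13, 24 and 52 calls (control 1, control 2, stimulated 1 and stimulated 2), against 40 with all. Over all genes the same drops gave 975, 523, 1391 and 4909 calls, against 2984 with all.

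**Figure D4:**
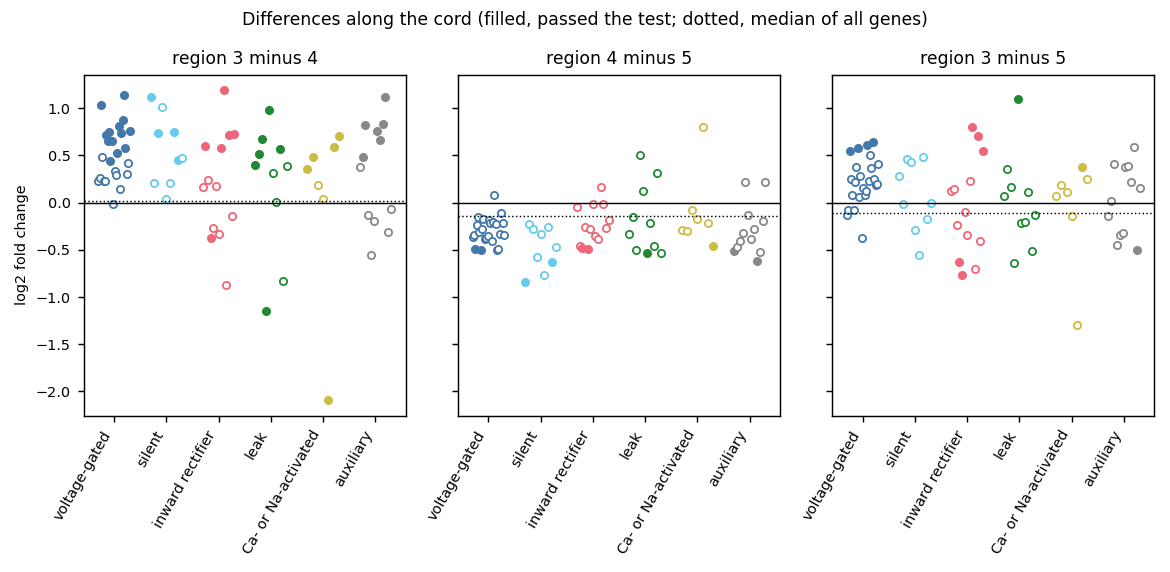
Log2 differences of the 75 members between cord regions (3 minus 4, 4 minus 5 and 3 minus 5), by role. Filled points passed an adjusted p under 0.05 and the dotted lines are the medians of all genes (0.02, -0.14 and -0.11). Most members lie above 0 for region 3 minus 4, and no member is called above 0 for region 4 minus 5.

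Against the caudal segment (region 5), 10 members were lower at the lesion (background 7.06%) and 0 higher (background 0.934%), with a median of -0.30 against -0.14 over all genes. Kcns3 (Kv9.3) was at 4.54, 5.00, 6.16 and 4.81 FPKM in region 4 and at 7.97, 7.09, 7.67 and 8.82 in region 5, without overlap (log2 difference -0.63 ± 0.11, adjusted p = 0.00558). Kcnip4 was at 8.14 ± 1.6 against 12.3 ± 0.489 FPKM, Kcnk2 at 3.20 ± 0.379 against 4.60 ± 0.324 and Kcnab1 at 18.8 ± 2.52 against 26.8 ± 0.62. Kcnf1, at 0.257 ± 0.0635 against 0.459 ± 0.102 FPKM, had the widest difference, -0.84 ± 0.19 on the log2 scale. Beside them, 4 of 6 neuron markers were lower at the lesion, with sums of 848 to 1081 FPKM against 1395 to 1512. Their part was not tested. The count was 4 under either other scaling, 16 with the animal as a replicate block, and 0 without control animal 1 or control animal 2. Over all genes, 1216 were called in the main fit and 470 and 627 under quantile and upper-quartile scaling. With the block 1966 genes were called, and without these 2 animals 5 and 22. Without the region 1 library of stimulated animal 2, which enters this comparison through the shared estimate of spread, 31 members and 2877 of all genes were called.

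Between rostral and caudal cord, 9 members were higher rostrally (background 1.55%) and 3 lower (background 2.77%), with a median of 0.12 against -0.11. Kcnj14 was at 9.62, 7.63, 8.80 and 8.24 FPKM in region 3 and at 14.8, 14.3, 14.6 and 14.5 in region 5. Its region 5 libraries lay close together and far from those of region 3 (log2 difference -0.77 ± 0.11, adjusted p = 0.000614). Kcnh7 was at 3.90 ± 0.691 against 2.47 ± 0.245 FPKM and Kcnj6 at 4.46 ± 0.461 against 2.75 ± 0.477, both higher rostrally. Kcnk15 and Kcnj4 were called as higher rostrally at levels under 1 FPKM. Beside them, all 4 Schwann cell markers were lower in region 3. Of the neuron markers, 3 of 6 were lower there and 1 higher, and of the spinal and brainstem neuron markers 2 of 5 were lower and 1 higher. Chat was at 4.86 to 6.65 FPKM in region 3 against 10.7 to 12.7 in region 5, and Slc5a7 at 11.2 to 13.7 against 24.4 to 26.0. Their part was not tested. Without control animal 2 region 3, the count of 12 fell to 3, and without a whole animal it was 3, 2, 1 and 15. Over all genes the calls went from 657 to 201, and to 136, 101, 54 and 1237, in the same order.

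Stimulation was compared within each region, 2 stimulated against 2 control animals. An exact permutation test of 2 against 2 cannot go below p = 0.333. The smaller p-values given here come from limma, which pools the spread over genes. No member passed an adjusted p under 0.05 in any region. Of all genes, 0.0% passed in each of regions 1 to 4 and 0.0197% in region 5. Before adjustment, p was under 0.05 for 9, 0, 6, 0 and 8 members in regions 1 to 5, against 828, 215, 522, 341 and 546 of the 15210 genes.

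In region 1, 39 of 75 members had both stimulated animals below both controls (background 19.5%) and 9 had both above (background 21.2%), with a median of -0.34 on the log2 scale against -0.03 over all genes. The members with the smallest p were Kcna5, Kcnma1 and Kcnk9. Kcnma1 was at 31.7 and 33.1 FPKM in the controls and at 25.2 and 22.1 in the stimulated animals (log2 difference -0.46 ± 0.12, unadjusted p = 0.0186). Kcnk9 was at 12.4 and 13.9 against 8.87 and 6.35 FPKM, and Kcna5, a subunit at low level, at 0.393 and 0.484 against 0.785 and 1.04. Kcna5 reached 1 FPKM in 2 libraries, both of stimulated animal 2 (regions 1 and 5), so it entered the test through the group where it was high, and it was not kept under the filter of 4 libraries. Stimulated animal 2 was the further from the controls for each of the 3. The same libraries differed in markers: stimulated animal 2 had a phagocyte marker sum of 1260 FPKM and stimulated animal 1 a striatal marker sum of 119, as given above. Cortical excitatory markers summed to 556 and 579 FPKM in the controls and to 364 and 490 in the stimulated animals, and general neuron markers to 1281 and 1289 against 878 and 1208. In stimulated animal 1 alone, 42 members (56.0%) were below both controls, against 24.0% of all genes. In stimulated animal 2 alone, 61 members (81.3%) were, against 56.1%. The part of these markers was not tested.

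In region 2, 12 members were lower without overlap (background 6.77%) and 9 higher (background 20.2%), with a median of -0.07 against 0.08. The smallest p belonged to Kcnk13, at 0.672 and 0.648 FPKM in the controls and 0.961 and 2.27 in the stimulated animals (unadjusted p = 0.0894). The highest value was that of stimulated animal 2, whose region 2 library also had the highest Kcnj16 (3.55 FPKM), Kcne5 (1.28) and Kcnn4 (1.52) of that region and a phagocyte marker sum of 229 FPKM. The stimulation effects of regions 1 and 2 were compared within animals, where 0.0% of genes and 0 members passed. Before adjustment, p was under 0.05 for 8 members among 575 genes in all. The smallest was that of Kcnn1 (-0.65 ± 0.17, unadjusted p = 0.0153, adjusted p = 0.884).

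In region 3, 23 members were lower without overlap (background 24.7%) and 2 higher (background 5.14%), so the share of lower members (30.7%) was near that of all genes. Kcna2 was at 43.7 and 42.9 FPKM in the controls and at 36.0 and 37.1 in the stimulated animals (log2 difference -0.25 ± 0.06, unadjusted p = 0.0141, adjusted p = 0.956). Kcna1 was at 65.7 and 62.8 against 54.3 and 53.6 FPKM. Both of these abundant axonal genes were lower in each stimulated animal than in each control, and neither passed the adjustment.

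In region 4, 27 members were higher without overlap (background 12.5%) and 6 lower (background 7.69%), with a median of 0.13 against 0.00. In stimulated animal 1, 51 members (68.0%) were above both controls, against 57.4% of all genes, and in stimulated animal 2, 33 (44.0%) were, against 19.4%. The members with the smallest p were Kcng2 (1.22 and 1.38 against 1.00 and 0.980 FPKM, unadjusted p = 0.0674), Kcnc4 (6.35 and 5.97 against 7.59 and 7.69, 0.0751) and Kcnn2 (2.80 and 2.58 against 3.79 and 3.35, 0.0781), each with the controls first. In the same libraries, phagocyte markers summed to 932 and 1258 FPKM in the controls and to 447 and 885 in the stimulated animals, and Schwann cell markers to 107 and 118 against 78.8 and 82.1. The 6 general neuron markers had a median log2 difference of 0.12, with 0 called. Their sum was the highest of this region in stimulated animal 1 and the lowest in stimulated animal 2. The part of these markers was not tested. In region 5, 18 members were higher without overlap (background 18.5%) and 12 lower (background 6.07%), with a median of 0.01 against 0.05. Kcnn4 was at 1.32 and 1.00 FPKM in the controls and at 2.32 and 2.44 in the stimulated animals (log2 difference 1.05 ± 0.20, unadjusted p = 0.00603, adjusted p = 0.850). Kcns1, a silent subunit of sensory neurons, was at 0.574 and 0.505 against 0.859 and 0.861 FPKM (0.68 ± 0.13, adjusted p = 0.862). The same libraries carried sensory ganglion markers, which summed to 3.55 and 6.23 FPKM in the stimulated animals and lay at the floor in the controls, and Schwann cell markers, which summed to 233 and 236 against 86.5 and 109. Their part in the difference was not tested.

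**Figure D5:**
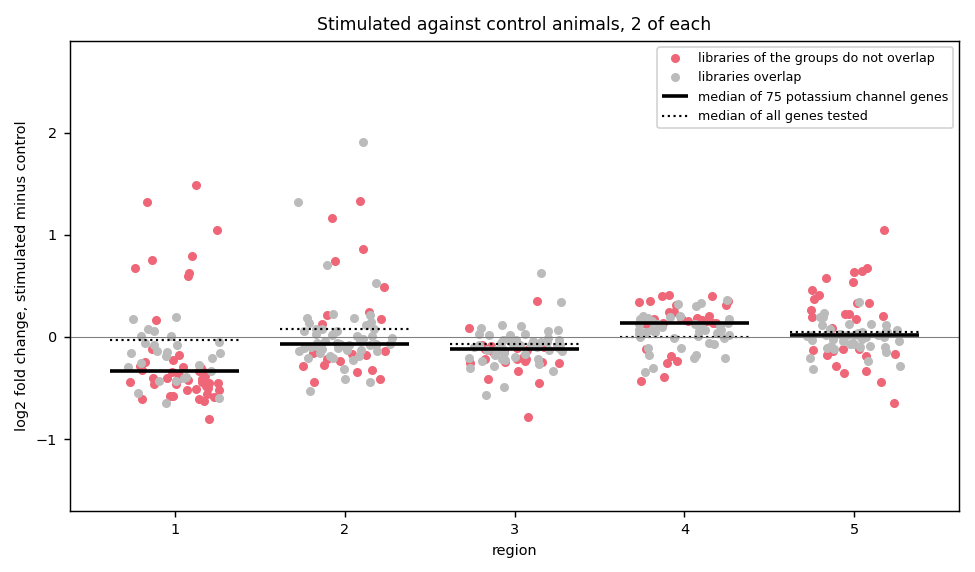
Log2 difference of stimulated minus control animals for the 75 members in each region (points). Red points are members whose groups do not overlap, solid lines are the members' medians and dotted lines the medians of all genes. The members' median lies lowest in region 1 at -0.34 and highest in region 4 at 0.13, and no point passed the adjusted test.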

How the data were processed

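Expression was measured by paired-end sequencing (51 bases) of ribosome-depleted RNA made with a stranded kit. Per the submitters' notes and the study's methods, the authors aligned reads to Rnor6 with TopHat2 2.1.0, computed FPKM per gene with Cufflinks 2.2.1, raised values under 0.1 to 0.1, and checked reads with FastQC and MultiQC 1.6. The deposited table holds these FPKM values, not read counts, so no count model was used and the depth behind each value is unknown. Cufflinks divides shared reads among similar or overlapping genes. The alignment is stated to have used default parameters, which take no account of strand, so reads of a gene and of an antisense partner may not be told apart. Each column carried the name of a sample, and 0 columns were left without one.

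From these values, log2 FPKM was computed without a pseudocount, and genes that reached 1 FPKM in at least 1 library were kept. Regional differences came from limma 3.58.1 (R 4.3.3) with an intensity trend, fitted to all 20 libraries with a mean per region, and stimulation from fits within each region. P-values were adjusted by Benjamini-Hochberg over all genes kept, at 0.05. No test is named in the study's methods. The scripts were tested on simulated data. Tables and figures used Python 3.11.15, numpy 2.4.6, pandas 2.3.3 and matplotlib 3.10.9. Alternatives were log2(FPKM + 1), no filter, a filter of 1 FPKM in at least 4 libraries, quantile and upper-quartile scaling, no trend, replicate blocks, control or stimulated animals only and leaving out each animal, with 5 more chosen after seeing the data (a crossed block and leaving out each of 4 libraries).

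The members, lists and rules were chosen with earlier results of these data known. Genes were named as the highest member of each subfamily, the 10 largest differences in each direction between white matter and cord, the 5 largest in each other pair of regions, the 3 smallest p for stimulation, the members of 8 role lists and those beside the filter. Kcna4, Kcna6, Kcnb2, Kcnd1, Kcnh1, Kcnh5, Kcnj9, Kcnj13, Kcns2, Kcns3 and Kcnt2 were named outside the largest differences after their values were seen. A few genes that the rule would name are not reported here, though the counts and sums include them. The 5 regions of an animal share that animal, which pairs them. The mean correlation of deviations was 0.588 for regions 1 and 2, 0.208 for 3 and 4, 0.028 for 4 and 5 and 0.125 for 3 and 5. The replicate numbers of stimulated and control rats name different animals.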

Additional observations from a re-analysis of the deposited data

Results flagged for a closer look

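Each of 58 groups (a named member in the 8 white matter libraries or in the 4 libraries of a region) was searched for a library far from the rest, and 6 were found. Chance would find about 1 in 20 such groups if their values were independent and normally spread, which was not checked. The groups share libraries and 1 of the 6 rests on the floor, so 6 of 58 is not set against that rate. Stimulated animal 2 region 1 stood apart in 2 of them. Kcnj4 was at 9.71 FPKM there and at 16.3 to 20.8 in the other white matter libraries, and Kcne5 at 4.42 against 0.204 to 1.79. The region 2 library of the same animal had Kcne5 at 1.28 FPKM against 0.204 to 0.360 in the other 3. Kcns1 was at 7.84 FPKM in control animal 1 region 2, against 1.46 to 4.27 in the other white matter libraries. Kcnh7 was at 4.94 FPKM in control animal 2 region 3, against 3.50 to 3.61. Kcnj4 was at 0.102 FPKM in stimulated animal 1 region 4, where the other 3 libraries lay at the floor of 0.1. Those 3 values were set to the floor by the authors, so any value above it would stand apart, and this one is not read as a difference.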

How the results depend on the processing

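The comparison of white matter blocks with cord was the most stable, with 69 members called and 59 to 70 under every alternative run (62 to 67 without each animal in turn). Over all genes 10977 were called, and 9474 to 11751 without each animal. Region 1 against 2 had 10 calls, 16 under quantile normalization, 20 under upper-quartile scaling, and 7 in control and 0 in stimulated animals only. It had 19 without the region 2 library of stimulated animal 2 and 0 to 17 without each animal. Region 3 against 4 had 40, with 38 in control and 0 in stimulated animals only. It had 25 without the region 3 library of control animal 2 and 13 to 52 without each animal. Region 4 against 5 had 10, with 6 without a filter, 4 under either scaling, 2 in control and 0 in stimulated animals only, 31 without the region 1 library of stimulated animal 2 and 0 to 14 without each animal. Region 3 against 5 had 12, with 7 without a filter, 0 in control or stimulated animals only, 3 without the region 3 library of control animal 2 and 1 to 15 without each animal. Fits on control or stimulated animals only have 2 libraries a region. In stimulated animals only, 0, 0, 0 and 1 of all 15210 genes were called for these pairs. A 0 there is thus no result about the members. In control animals only, 1215, 3265, 201 and 0 genes were. For region 3 against 4 in stimulated animals only, the members' median was 0.32, against -0.0094 over all genes. Without each animal, 26 to 3674, 523 to 4909, 5 to 1097 and 54 to 1237 genes were called. Causes were not tested.

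With the animal as a replicate block, region 4 against 5 had 16 calls in place of 10, and the other pairs of regions stayed within 1.5 times. Over all genes that pair had 1966 calls in place of 1216. For stimulation, the replicate numbers do not pair animals (correlation of same-numbered deviations -0.213, -0.0974, -0.106, 0.321 and -0.164 in regions 1 to 5). A replicate block gave 3 calls among the 75 members in region 5 in place of 0, beside 443 of all 15210 genes in place of 3. In that fit limma used only the spread shared by the genes, so these calls are not read as a result about the members. Leaving out an animal leaves a lone animal in its group, which is assumed to vary like the others, so those calls are not given. A crossed replicate block, added after seeing the data, gave 0 calls in regions 1, 3 and 5, also over all genes.

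Over single genes, 2304 of 2718 values kept direction and call, 389 lost the call, 9 gained it and 16 changed sign, all of the latter for members not called between the blocks and the cord. The log2 differences were, for Kcna5, 0.35 under quantile normalization, 0.011 under upper-quartile scaling, -0.22 to 0.085 without each animal, and 0.28 in stimulated animals only. For Kcnc4 they were 0.011 and 0.0081 under these scalings, -0.15 to 0.018 without each animal and 0.054 in control animals only. They were 0.16 for Kcnh6 under quantile normalization and 0.22 for Kcnk13 in stimulated animals only. For Kcnk6 they were -0.24 to 0.19 without each animal, -0.19 in control animals only, and -0.16, -0.13 and -0.0037 without the libraries of stimulated animal 2 region 2, stimulated animal 2 region 1 and control animal 2 region 3.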
